A study of Mus musculus with 8 samples.

Results

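The receptors of the IL-1 cytokine family were followed as 6 genes, Il1r1, Il1r2, Il1rap, Il1rl1, Il18r1 and Il18rap, chosen by name as the receptor chains for IL-1, IL-18 and IL-33. All 6 were among the 16735 genes present in both count tables of the study, and all 6 were among the 14418 that passed the filter on low counts. The study sorted follicular helper T (Tfh) cells, which live in B cell follicles and support antibody responses, to find what marks those with a Th17 past. Every library came from K/BxN mice, which develop spontaneous autoimmune arthritis, with a Th17 fate-mapping reporter, so that ZsGreen fluorescence persists in a cell after it has passed through the Th17 state. The sources used here do not give the Cre driver of that reporter, or the age of the mice. The shared gate was CD4+, TCRβ+, CD25−, CXCR5+ and PD-1+, after enrichment of CD4+ T cells by negative selection, and the 4 groups were ZsGreen− and ZsGreen+ cells of Peyer's patch and of spleen. Each group had 2 libraries of bulk RNA sequencing, replicate 1 from experiment 1 and replicate 2 from experiment 2.

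IL-1 family receptors share an intracellular TIR domain, which recruits MyD88 and the IRAK kinases and leads to NF-κB and MAP kinase signalling. A ligand first binds its own chain, IL1R1 for IL-1, ST2 (encoded by Il1rl1) for IL-33 and IL18R1 for IL-18, and a second chain then completes the complex. IL1RAP is that second chain for IL-1 and IL-33, and IL18RAP is that of IL-18. IL1R2 binds IL-1 but lacks a signalling TIR domain and acts as a decoy. In T cells, IL-1 supports the differentiation of Th17 cells, IL-18 acts with IL-12 on Th1 cells, and ST2 is best known on Th2 cells, regulatory T cells and mast cells.

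In the coordinates of the deposited tables (mm39), 5 of the 6 genes lay on the plus strand of chromosome 1 within 478 kb. Il1r2 (ENSMUSG00000026073) ran from 40113239 to 40164391 and Il1r1 (ENSMUSG00000026072) from 40264240 to 40356417. Il1rl1 (ENSMUSG00000026069) ran from 40468730 to 40504575, and Il18r1 (ENSMUSG00000026070) followed it from 40504712 to 40540014. Il18rap (ENSMUSG00000026068) ran from 40554522 to 40590865, and Il1rl2, the IL-36 receptor gene, which is no member, lay among them. Il1rap (ENSMUSG00000022514) lay apart, on chromosome 16 from 26400454 to 26548867.

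RefSeq's mouse assembly GRCm38.p6, an older build than that of the tables, gave 10 windows of 250 bases before an annotated start, and all 6 genes matched by symbol. Those of Il18r1 and Il18rap are printed because these 2 neighbours rose together in ZsGreen+ cells, and one of Il1r1 because it held a match to a searched motif. The window of Il18r1 is cut to the 136 bases that lie outside annotated exons. All are read 5′ to 3′ on the plus strand, and capitals mark the motif match.
Il18r1, chr1:40465416-40465551: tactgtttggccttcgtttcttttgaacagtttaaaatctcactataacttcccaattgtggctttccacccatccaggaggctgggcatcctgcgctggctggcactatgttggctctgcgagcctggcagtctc
Il18rap, chr1:40515112-40515361: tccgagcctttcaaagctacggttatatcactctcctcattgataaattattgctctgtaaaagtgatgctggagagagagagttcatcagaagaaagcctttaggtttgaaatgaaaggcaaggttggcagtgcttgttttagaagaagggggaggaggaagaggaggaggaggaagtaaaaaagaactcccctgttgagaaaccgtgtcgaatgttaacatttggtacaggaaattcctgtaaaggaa
Il1r1, second annotated start, chr1:40266336-40266585: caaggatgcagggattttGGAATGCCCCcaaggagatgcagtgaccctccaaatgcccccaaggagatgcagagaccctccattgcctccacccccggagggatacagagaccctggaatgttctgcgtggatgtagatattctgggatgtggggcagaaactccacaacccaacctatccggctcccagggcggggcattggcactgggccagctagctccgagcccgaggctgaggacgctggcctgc

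Both strands were searched for 3 motifs. These were the AP-1 site TGANTCA, held by 6.75% of 32851 mouse promoter windows of the same length, the T-box site GGTGTGA (3.33%) and the κB consensus (3.9%). The window of Il1r1 printed above held a κB match on the minus strand, 232 bases before the start. None of the 3 motifs was found in the windows of Il18r1, Il18rap, Il1r2, Il1rap or Il1rl1, which says only that these letters are not there.

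Libraries held 10009823 to 15323743 estimated counts. Levels are given as CPM, the count as a share of the library on a fixed scale, scaled by edgeR's TMM factors, and 3 counts, taken as the limit of detection, came to 0.16 to 0.46 CPM. The labels do not say whether replicates came from separate animals, and p-values therefore cover the spread among these libraries only, which may be technical. The libraries of the 2 experiments stood apart, so each contrast was fitted with a term for the experiment, and receptor levels are given by experiment. Adjusted p-values throughout come from the quasi-likelihood test of edgeR, with the Benjamini-Hochberg method applied to all 14418 genes and a threshold of 0.05. Log2 fold changes carry their standard error (SE). The mRNA of the sort markers was present in all groups, from 104.6 CPM of Cxcr5 in a spleen ZsGreen+ library to 801.7 CPM in a Peyer's patch ZsGreen− library, and Cd4 lay between 673.4 and 1356 CPM. Of 8 Tfh markers none was called by ZsGreen in Peyer's patch, and 3 fell and none rose in spleen ZsGreen+ cells, which are the cells in which Il1r1, Il18r1 and Il18rap rose. They were Cxcr5 (-1.70 ± 0.17, adjusted p = 0.000127), Cd3e (-0.83 ± 0.22, adjusted p = 0.0426) and Tox2 (-0.63 ± 0.18, adjusted p = 0.0489). Cxcr5 kept its call with any library left out, and Cd3e and Tox2 lost theirs without any one of several libraries (highest adjusted p 0.285 and 0.426). The part of this in the receptor levels was not tested.

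ZsGreen+ cells carried more mRNA for the IL-18 receptor in both tissues and more for the IL-1 receptor Il1r1 in spleen, while the decoy Il1r2, the shared chain Il1rap and the ST2 gene Il1rl1 gave no call by ZsGreen. Of the 6 genes, 2 rose and none fell in Peyer's patch, where 0.284% of all genes tested rose and 0.153% fell. In spleen 3 rose and none fell, where 4.53% of all genes rose and 4.09% fell. The median log2 fold change of the 6 genes was 0.997 in Peyer's patch and 1.32 in spleen, or 0.66 and 1.59 without Il1rl1, which is at or near 0 counts in Peyer's patch, against 0.00 and -0.03 over all genes. By the criterion with which the study defined its signature, 1.5-fold with a p under 0.05, taken here as unadjusted, 3 genes rose in Peyer's patch (2.64% of all genes) and 4 in spleen (6.4% of all genes). Without the term for the experiment no gene passed in any contrast, among the receptors or elsewhere.

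**Figure D1:**
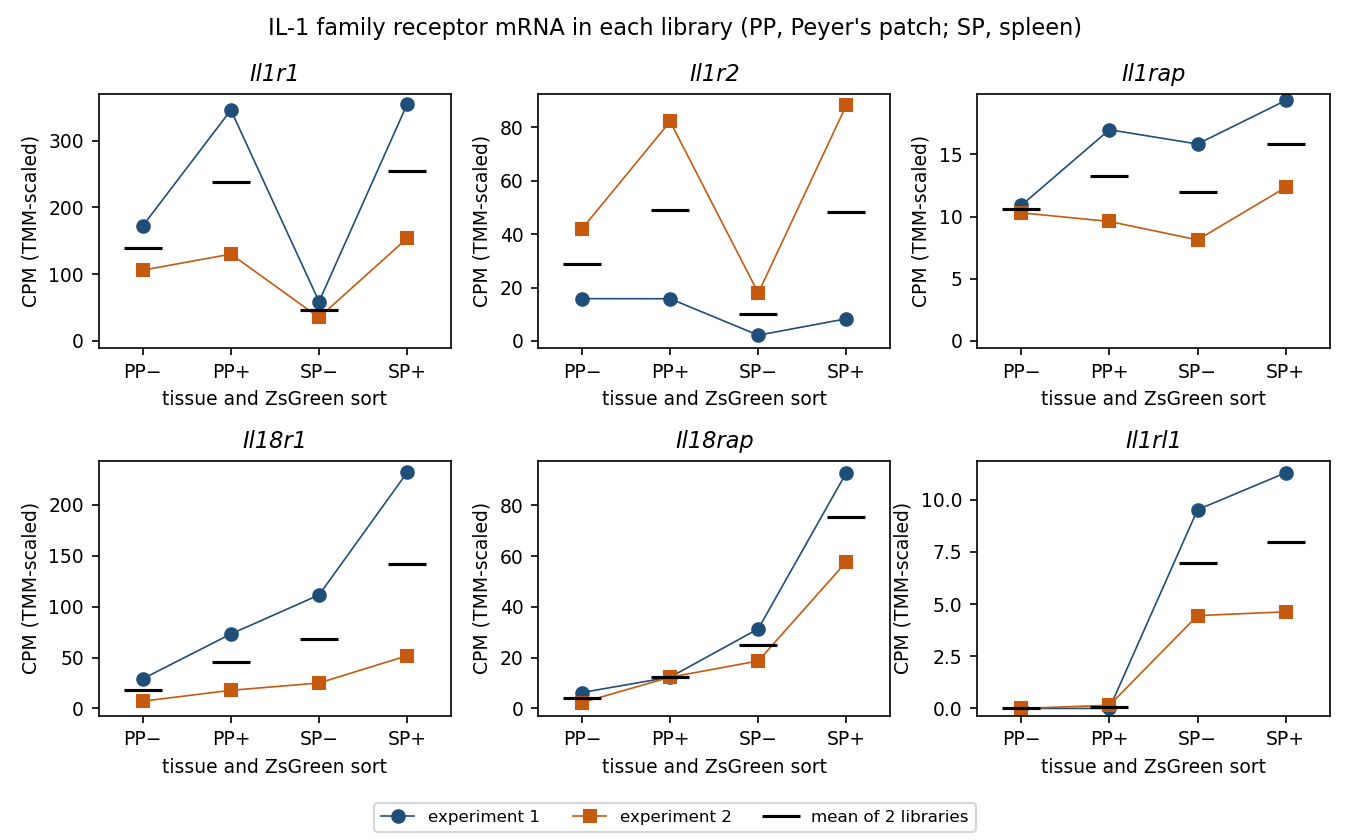
Each point is a library and each bar the mean of the 2 libraries of a group, with tissue and ZsGreen sort on the x axis and TMM-scaled CPM on the y axis; lines join libraries of the same experiment. Il18r1 and Il18rap climb from Peyer's patch ZsGreen− to spleen ZsGreen+ in both experiments, Il1r1 is lowest in spleen ZsGreen− cells (58.99 and 35.11 CPM), and Il1rl1 lies at 0 or 0.15 CPM in Peyer's patch.

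Il1r1, the signalling receptor for IL-1, stood at 172.3 CPM in experiment 1 and 106 CPM in experiment 2 in Peyer's patch ZsGreen− cells, and at 346 and 130.1 CPM in Peyer's patch ZsGreen+ cells. In spleen it stood at 58.99 and 35.11 CPM in ZsGreen− cells and at 354.8 and 153.9 CPM in ZsGreen+ cells. Spleen ZsGreen− cells were thus the low group, and neither of their libraries reached the lowest of the other 6. In spleen the gene rose in ZsGreen+ cells by 2.37 ± 0.19 on the log2 scale (SE, adjusted p = 3.29e-05), which is 5.17-fold, with 2.59 in experiment 1 and 2.13 in experiment 2. The value in Peyer's patch was 0.66 ± 0.18 (adjusted p = 0.232), with 1.005 and 0.29 by experiment, and the libraries of the sorts overlapped. That value met the study's criterion, at 1.58-fold and an unadjusted p of 0.00321 in edgeR's test.

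The ZsGreen contrast of Il1r1 differed between the tissues. It was lower in Peyer's patch than in spleen by a log2 difference of -1.71 ± 0.25 (SE, adjusted p = 0.0338 for the interaction in edgeR), with -1.58 and -1.83 by experiment. It was the only one of the 6 genes past the threshold for this difference, which 0.0971% of all genes tested passed in either direction and 0.0694% in the lower direction. Ordered by p it was number 9 of the 14 genes that passed. The call was lost when replicate 1 or replicate 2 of Peyer's patch ZsGreen− or replicate 1 of spleen ZsGreen+ was left out, with a highest adjusted p of 0.151. Between tissues, Il1r1 was higher in Peyer's patch than in spleen among ZsGreen− cells by 1.58 ± 0.19 (adjusted p = 0.000534), with 1.54 and 1.59 by experiment. Among ZsGreen+ cells the same contrast was -0.13 ± 0.18 (adjusted p = 0.699), with -0.04 and -0.24 by experiment. In the order of group means, spleen ZsGreen+ stood first (254.3 ± 142.1 CPM, SD, n = 2), then Peyer's patch ZsGreen+ (238 ± 152.7). Peyer's patch ZsGreen− (139.2 ± 46.89) and spleen ZsGreen− cells (47.05 ± 16.89 CPM) followed. Peyer's patch ZsGreen+ cells did not pass a test against either neighbour in this order. Spleen ZsGreen+ cells were not tested against Peyer's patch ZsGreen− cells.

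Il1r2, the decoy receptor, showed the same order of groups as Il1r1 within experiment 2, but its libraries split by experiment. Its levels in Peyer's patch were 15.84 and 41.99 CPM (experiments 1 and 2) in ZsGreen− cells and 15.8 and 82.21 CPM in ZsGreen+ cells. In spleen it stood at 2.139 and 17.94 CPM in ZsGreen− cells and at 8.306 and 88.38 CPM in ZsGreen+ cells. Levels were similar in Peyer's patch ZsGreen− and ZsGreen+ cells of experiment 1, experiment 2 was the higher one in every group, and all groups overlapped across experiments. In spleen the ZsGreen contrast was 2.16 ± 0.56 (adjusted p = 0.106), with 1.89 and 2.29 by experiment, and in Peyer's patch it was 0.42 ± 0.50 (adjusted p = 0.908), with 0.00 in experiment 1 and 0.97 in experiment 2. The Peyer's patch over spleen contrast was 2.05 ± 0.57 in ZsGreen− cells (adjusted p = 0.161), with 2.81 and 1.22 by experiment. In ZsGreen+ cells it was 0.31 ± 0.49 (adjusted p = 0.762), with 0.92 in experiment 1 and -0.10 in experiment 2. Other fits placed Il1r2 past the threshold in spleen and between the ZsGreen− groups. DESeq2 gave an adjusted p of 1.35e-05 for the former and 3.83e-05 for the latter.

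Counts of Il1r1 and Il1r2 share their position with other annotated genes, and the labels name a non-directional preparation as one of those used, in which reads of opposite strands cannot be told apart. Il1r1 overlapped Gm38070 on the same strand by 6480 bases, and that gene had at most 120 counts in a library. Il1r2 overlapped Gm37347 on the same strand (3071 bases, at most 24 counts) and Gm16894 on the opposite strand (9624 bases, at most 25 counts). None of the other 4 receptor genes overlapped another gene of the tables.

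Il1rap, the chain that completes the IL-1 and IL-33 receptors, had the smallest ratio of highest to lowest library of the 6, with levels from 8.125 to 19.33 CPM. Its levels were 10.89 and 10.3 CPM in Peyer's patch ZsGreen− cells, 16.98 and 9.602 CPM in Peyer's patch ZsGreen+ cells, 15.83 and 8.125 CPM in spleen ZsGreen− cells, and 19.33 and 12.34 CPM in spleen ZsGreen+ cells. The sorts overlapped in each tissue, and the tissues in each sort. The ZsGreen contrast was 0.28 ± 0.25 in Peyer's patch (adjusted p = 0.842), with 0.63 in experiment 1 and -0.10 in experiment 2, and 0.41 ± 0.25 in spleen (adjusted p = 0.371), with 0.29 and 0.59. Between tissues it was -0.14 ± 0.25 in ZsGreen− cells (adjusted p = 0.843), with -0.53 and 0.34 by experiment, and -0.27 ± 0.24 in ZsGreen+ cells (adjusted p = 0.527), with -0.19 and -0.36. The experiments thus differed in sign for the Peyer's patch sorts and for the ZsGreen− tissues.

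Il18r1 and Il18rap, the binding and the completing chain of the IL-18 receptor, rose in ZsGreen+ cells of both tissues and were lower in Peyer's patch than in spleen in both sorts. Il18r1 stood at 29.12 and 7.09 CPM (experiments 1 and 2) in Peyer's patch ZsGreen− cells and at 73.14 and 17.78 CPM in Peyer's patch ZsGreen+ cells. In spleen it stood at 111.5 and 24.99 CPM in ZsGreen− cells and at 231.9 and 51.77 CPM in ZsGreen+ cells. The sorts overlapped in each tissue, and the tissues in each sort, across experiments. Experiment 1 was the higher one in every group, but the order of the 4 groups was the same in each experiment. The ZsGreen contrast was 1.33 ± 0.14 in Peyer's patch (adjusted p = 0.00155), with 1.33 and 1.31 by experiment. In spleen it was 1.05 ± 0.13 (adjusted p = 0.000574), with 1.06 and 1.05 by experiment.

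Il18rap stood at 6.259 and 2.326 CPM in Peyer's patch ZsGreen− cells and at 12.31 and 12.3 CPM in Peyer's patch ZsGreen+ cells. In spleen it stood at 31.34 and 18.7 CPM in ZsGreen− cells and at 92.92 and 57.77 CPM in ZsGreen+ cells. None of the 4 groups overlapped with another. The ZsGreen contrast was 1.54 ± 0.27 in Peyer's patch (adjusted p = 0.0433), with 0.96 and 2.34 by experiment, and 1.59 ± 0.23 in spleen (adjusted p = 0.00231), with 1.56 and 1.62 by experiment. For neither chain did the ZsGreen contrast pass the test of a difference between tissues, which gave 0.28 ± 0.19 for Il18r1 (adjusted p = 0.76) and -0.05 ± 0.37 for Il18rap (adjusted p = 0.988).

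The Peyer's patch call of Il18rap was the least stable of these. It was lost under a stricter count filter and without any one of replicate 1 or 2 of Peyer's patch ZsGreen−, replicate 2 of Peyer's patch ZsGreen+ and replicate 1 or 2 of spleen ZsGreen+, with a highest adjusted p of 0.227 and log2 fold changes from 1.13 to 2.15. The Peyer's patch call of Il18r1 was lost without replicate 1 of Peyer's patch ZsGreen− (adjusted p = 0.0998, log2 fold change 1.28) and kept when any other single library was left out. In spleen Il1r1, Il18r1 and Il18rap passed with any single library left out, at highest adjusted p-values of 0.000247, 0.0142 and 0.0304.

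**Figure D2:**
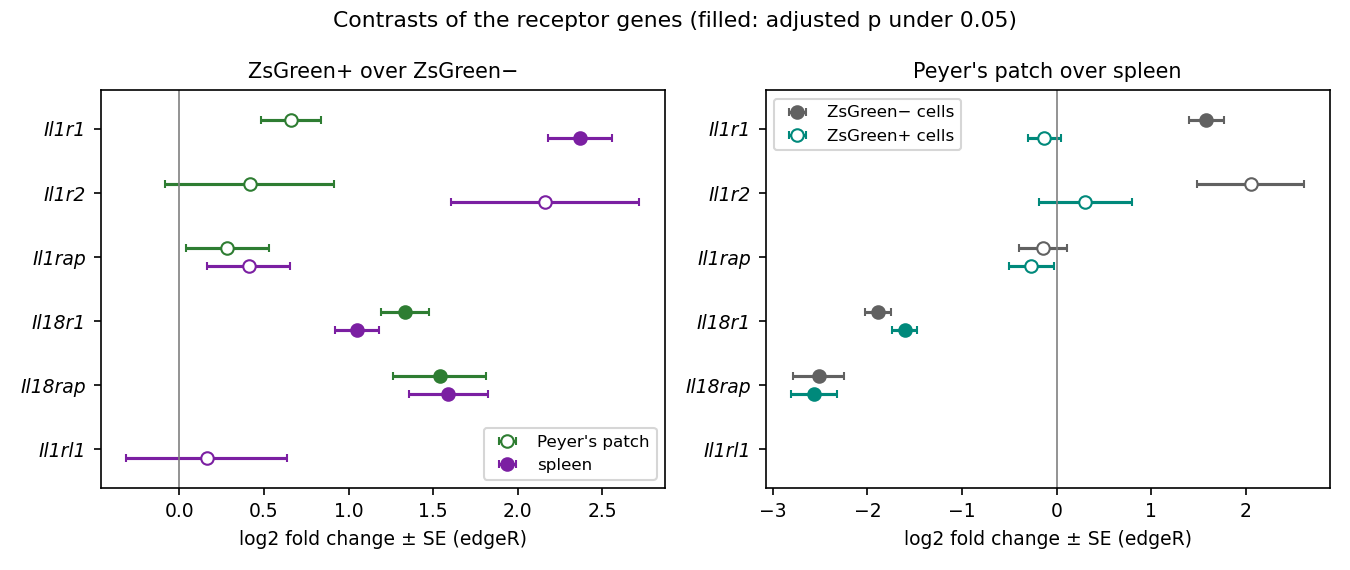
Points are edgeR log2 fold changes on the x axis with SE bars, for ZsGreen+ over ZsGreen− cells (left) and Peyer's patch over spleen (right), and filled points have an adjusted p under 0.05. The Il1r1 points of the 2 tissues lie far apart on the left (0.66 and 2.37) and those of the IL-18 receptor genes close together; Il1rl1 is drawn for the spleen sort only, since it had at most 2 counts in a Peyer's patch library.

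Between tissues, the IL-18 receptor genes and Il1rl1 were lower in Peyer's patch in both sorts, and Il1r1 was higher there in ZsGreen− cells. Among ZsGreen− cells 1 of the 6 genes was higher in Peyer's patch and 3 were lower, where 1.82% of all genes were higher and 3.68% lower. Among ZsGreen+ cells none was higher and 3 were lower, where 5.51% of all genes were higher and 7.17% lower. Il18r1 was lower in Peyer's patch by -1.89 ± 0.14 in ZsGreen− cells (adjusted p = 2.48e-05), with -1.93 and -1.80 by experiment, and by -1.61 ± 0.13 in ZsGreen+ cells (adjusted p = 2.27e-05), with -1.66 and -1.53. Il18rap was lower by -2.51 ± 0.27 (adjusted p = 0.000399), with -2.30 and -2.93 by experiment, and by -2.57 ± 0.24 (adjusted p = 8.39e-05), with -2.90 and -2.22, in the same sorts. In the bulk libraries, fewer cells with a receptor and less receptor mRNA per cell cannot be told apart.

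Il1rl1, which encodes ST2, was read almost only in spleen. Peyer's patch ZsGreen− libraries had 0 counts in both experiments, and Peyer's patch ZsGreen+ libraries had 0 and 2 counts. Spleen ZsGreen− libraries had 178 and 29 counts, or 9.52 and 4.446 CPM, and spleen ZsGreen+ libraries had 212 and 54 counts, or 11.29 and 4.629 CPM. The tissues did not overlap in either sort. Against the detection limit of 3 counts over the group, spleen was at least 75-fold higher in ZsGreen− cells (adjusted p = 0.000758). In ZsGreen+ cells the ratio of spleen to Peyer's patch, from 266 against 2 counts, was 136, with a 95% interval of 37.3 to 1130 that covers counting error only (adjusted p = 0.000381). Within spleen the ZsGreen contrast was 0.16 ± 0.47 (adjusted p = 0.888). No fold change between the sorts of Peyer's patch is given, since both were at or under the detection limit. The gene makes a membrane and a secreted form, and counts per gene do not separate them.

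Levels of different genes were compared per kb of exon (GENCODE vM21 lengths, from 1.908 kb for Il1r2 to 11.36 kb for Il1rap). The order of the genes depended on the experiment. In experiment 1 Il1r1 was the highest of the 6 in all groups except spleen ZsGreen−, where Il18r1 stood at 23.15 and Il1r1 at 9.271 CPM per kb. In experiment 2 Il1r2 was above Il1r1 in all 4 groups, at 22.01 against 16.66 CPM per kb in Peyer's patch ZsGreen− and 43.09 against 20.44 in Peyer's patch ZsGreen+ cells. In spleen it stood at 9.4 against 5.517 CPM per kb in ZsGreen− and 46.32 against 24.18 in ZsGreen+ cells, and Il18r1 in spleen ZsGreen− cells, at 5.187, was close to Il1r1. Il1rap was low in all groups, with group means from 0.933 to 1.39 and single libraries from 0.715 to 1.701 CPM per kb. The ratio of Il1r1 to Il1rap per kb was 6.65 and 7.71 in the spleen ZsGreen− libraries and between 18.4 and 36.4 in the other 6 libraries, so these groups did not overlap.

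The balance of signalling and decoy receptor differed more between experiments than between groups. Il1r2 made up 8.42% of the summed Il1r1 and Il1r2 counts in Peyer's patch ZsGreen− cells of experiment 1 (95% exact binomial interval 7.51 to 9.39), 4.37% in Peyer's patch ZsGreen+, 3.5% in spleen ZsGreen− and 2.29% in spleen ZsGreen+ cells. In experiment 2 the shares were 28.4% (26 to 30.9), 38.7%, 33.8% and 36.5% in the same order. In experiment 1 the share was lower in ZsGreen+ than in ZsGreen− cells of both tissues, and in experiment 2 it was higher. The counting intervals of the sorts were apart in Peyer's patch and overlapped in spleen, in both experiments. Per kb, Il1r1 exceeded Il1r2 by 3.26 to 12.8 times in experiment 1 and reached 0.474 to 0.757 of it in experiment 2. Whether the difference lies in the animals, the sorts or the library preparation was not tested.

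**Figure D3:**
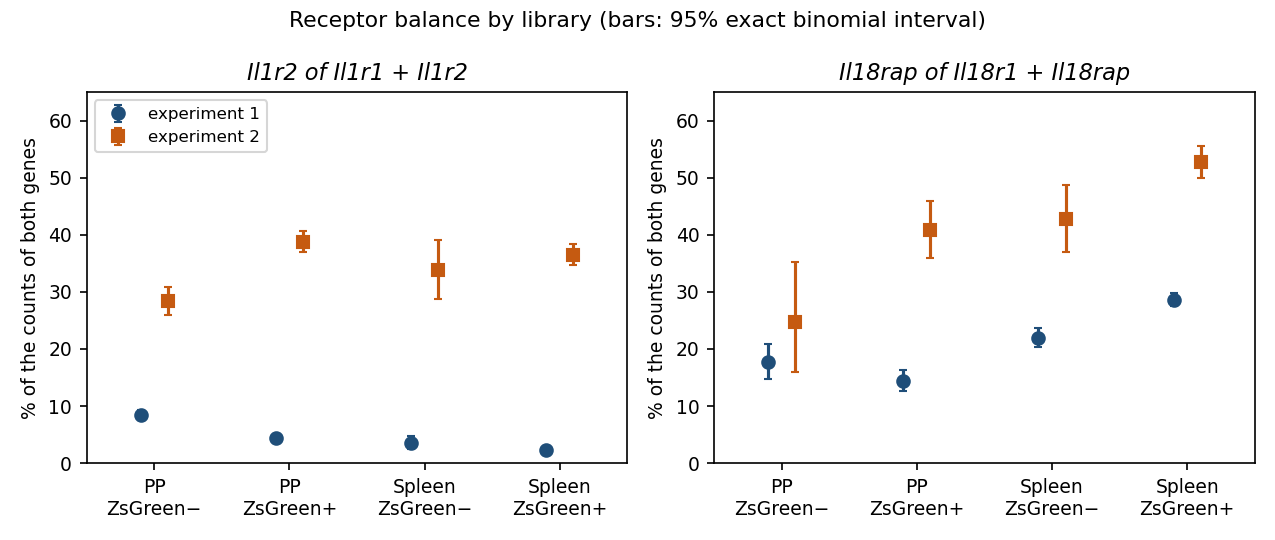
Points are libraries, with group on the x axis and on the y axis the percentage of Il1r2 among Il1r1 and Il1r2 counts (left) or of Il18rap among Il18r1 and Il18rap counts (right); bars are 95% exact binomial intervals that cover counting error only. The Il1r2 share spans 2.29% to 8.42% in experiment 1 and 28.4% to 38.7% in experiment 2, and the Il18rap share is highest in spleen ZsGreen+ cells of each experiment.

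For the IL-18 receptor, the share of Il18rap among the counts of both chains was 17.7%, 14.4%, 21.9% and 28.6% in experiment 1 (Peyer's patch ZsGreen− and ZsGreen+, spleen ZsGreen− and ZsGreen+). In experiment 2 it was 24.7%, 40.9%, 42.8% and 52.7%. Spleen ZsGreen+ cells had the largest share in each experiment, and in both tissues of experiment 2 the share was larger in ZsGreen+ than in ZsGreen− cells. For Peyer's patch the sign of that difference was not shared by the experiments. Per kb, Il18r1 exceeded Il18rap in all 8 libraries, by 1.26 to 8.33 times.

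Between the experiments, log2 CPM in experiment 2 minus experiment 1 ran over the 4 groups from -2.16 to -2.02 for Il18r1, from -1.41 to -0.70 for Il1r1, from -1.38 to 0.00 for Il18rap and from -0.95 to -0.08 for Il1rap. Il1r2 alone went the other way in all groups, from 1.40 to 3.39. The offset of Il18r1 was nearly the same in every group, and that of Il1r2 was not.

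Along the chromosome 1 cluster the calls by ZsGreen were not shared by all genes. Il1rl2 lies between Il1r1 and Il1rl1 and stood at 5.212 to 21.23 CPM, with a ZsGreen contrast of -0.13 in Peyer's patch (adjusted p = 0.954) and 0.11 ± 0.28 in spleen (adjusted p = 0.87). Il1rl1 ended 136 bases before Il18r1 began, yet Il1rl1 was at 0 to 2 counts in the Peyer's patch libraries in which Il18r1 rose with ZsGreen. The flanking genes that could be tested gave no call by ZsGreen. Rnf149 had -0.31 in Peyer's patch and -0.37 ± 0.14 in spleen, Map4k4 -0.17 and -0.21 ± 0.14, and Mfsd9 0.31 and -0.81 ± 0.69. Between tissues Rnf149 was higher in Peyer's patch, by 0.71 in ZsGreen− cells (adjusted p = 0.0103) and 0.77 in ZsGreen+ cells (adjusted p = 0.00312), the direction opposite to that of Il18r1 and Il18rap.

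**Figure D4:**
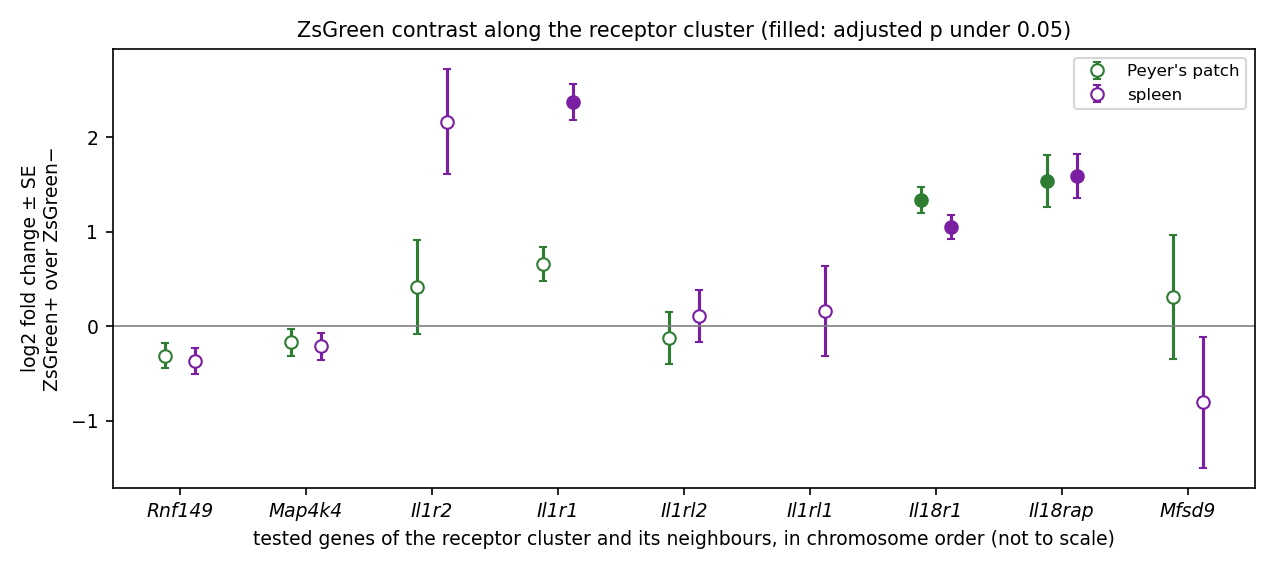
Tested genes of the chromosome 1 receptor cluster and its neighbours stand in chromosome order on the x axis (not to scale), with the log2 fold change of ZsGreen+ over ZsGreen− cells ± SE on the y axis; filled points have an adjusted p under 0.05. Il1r1 is filled for spleen only, Il18r1 and Il18rap for both tissues, and the flanking genes Rnf149, Map4k4 and Mfsd9 are open.

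Around the receptors, no tested gene of the pathway lists passed by ZsGreen in Peyer's patch, where 0.284% of all genes tested rose and 0.153% fell. In spleen some did, where 4.53% of all genes rose and 4.09% fell. The counts of the lists that follow are to be read beside these shares. The other receptors of the family that could be tested, Il1rl2 and the inhibitory receptor Sigirr, gave no call in either tissue; Sigirr stood at 77.19 to 167.7 CPM. Of 11 ligand and antagonist genes 5 were in at least 1 table and 2 passed the count filter, the antagonist gene Il1rn (at most 2.024 CPM) and Il18bp, whose product neutralises IL-18 (at most 5.91 CPM). Neither was called. Il1b reached at most 0.599 CPM, and Il1a and Il18 at most 0.225 and 1.533 CPM in the 1 table that held them.

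Among 14 tested genes of the signalling complex (MyD88, IRAK, TRAF6, TAK1 and their regulators), 0 were called in Peyer's patch, and in spleen 2 rose and 1 fell. Irak2, a kinase of the complex, stood at 17.65 and 13.64 CPM in spleen ZsGreen− and at 27.05 and 25.46 CPM in spleen ZsGreen+ cells, without overlap, and rose by 0.74 ± 0.19 (adjusted p = 0.0356). Myd88, the adaptor itself, rose from 83 and 158.7 CPM to 104 and 270.4 CPM, by 0.55 ± 0.15 (adjusted p = 0.0401). Peli1, which encodes a ubiquitin ligase of the pathway, fell by 0.48 on the log2 scale (adjusted p = 0.0461). Irak2 lost its call without any one library of spleen or of Peyer's patch ZsGreen−, and Myd88 without any one of these except replicate 1 of spleen ZsGreen−. Peli1 lost it without any one library of spleen or of Peyer's patch ZsGreen+, under RLE scaling and by limma, and the highest adjusted p-values were 0.275, 0.364 and 0.245. The median log2 fold change of the 14 was -0.02 in Peyer's patch and 0.06 in spleen, against 0.00 and -0.03 over all genes tested.

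Of 17 NF-κB genes none was called by ZsGreen in either tissue, with medians of 0.05 and 0.18. Of 9 MAP kinase genes 1 was called, Map2k3, an activator of p38, which rose in spleen by 0.59 ± 0.16 (adjusted p = 0.0398). Of 8 inflammasome and caspase genes, Aim2, a DNA sensor, rose in spleen by 0.67 ± 0.15 (adjusted p = 0.019), and Nlrc4 fell, by -1.76 ± 0.43 (adjusted p = 0.0259), on at most 7.808 CPM. Of 5 Toll-like receptor genes, whose products share the TIR domain, Tlr1 fell in spleen by -0.80 ± 0.18 (adjusted p = 0.0189). Map2k3 and Tlr1 lost the call without any one spleen library except replicate 1 of ZsGreen+ (highest adjusted p 0.379 and 0.196), and Aim2 without any one spleen library (0.157). Nlrc4 lost it without replicate 1 of Peyer's patch ZsGreen−, replicate 1 of spleen ZsGreen− or either spleen ZsGreen+ library (0.32). Between tissues in ZsGreen+ cells, where 7.17% of all genes were lower in Peyer's patch, 3 of the 14 signalling genes were lower, Irak2 (-1.23, adjusted p = 0.00147), Myd88 (-0.73, adjusted p = 0.0064) and Traf6 (-0.65, adjusted p = 0.0245), and none was higher.

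The type 17, type 1 and type 2 gene programs moved by ZsGreen as follows. Of 9 type 17 genes 3 rose in Peyer's patch and 7 in spleen, and none fell. Il23r, which encodes a chain of the IL-23 receptor, rose by 3.29 (adjusted p = 0.000526) and 4.57 ± 0.26 (adjusted p = 5e-06), and Ccr6, the receptor for the chemokine CCL20, by 2.31 (adjusted p = 0.000613) and 3.88 ± 0.21 (adjusted p = 6e-06), in Peyer's patch and spleen. Of 8 type 1 genes none rose in Peyer's patch and 2 fell, and in spleen 1 rose and 2 fell. Eomes, a T-box factor gene, fell by -4.80 in Peyer's patch and -5.96 ± 0.47 in spleen, and Ccl5 by -2.08 and -4.78 ± 0.35. Eomes stood at 0.169 and 0.15 CPM in Peyer's patch ZsGreen+ and at 0.746 and 0.0857 CPM in spleen ZsGreen+ cells. All of these but 0.746 CPM were at or under the limit of detection, so the size of its fall is uncertain. The type 1 gene that rose in spleen was Il12rb1, a receptor chain shared by IL-12 and IL-23, by 1.02 ± 0.19 (adjusted p = 0.00624). Tbx21, which encodes T-bet, had -1.26 (adjusted p = 0.41) and -0.92 ± 0.34 (adjusted p = 0.159), and Ifng had -0.09 (adjusted p = 0.982) and -0.74 ± 0.37 (adjusted p = 0.308). Of 3 type 2 genes 1 fell in spleen, Il4, by -1.36 ± 0.36 (adjusted p = 0.0369), and Gata3, the factor of Th2 cells, had -0.14 ± 0.13 there (adjusted p = 0.605). In spleen the calls of Il23r, Ccr6, Eomes and Ccl5 were kept with any single library left out. Il12rb1 lost its call without replicate 2 of either spleen group (highest adjusted p 0.0775), and Il4 without these or either Peyer's patch ZsGreen− library (0.361). In Peyer's patch Il23r and Ccr6 passed whichever library was omitted. There Eomes no longer passed without replicate 1 of either sort (highest adjusted p 0.255), nor did Ccl5 without any one Peyer's patch library or by limma (0.724).

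**Figure D5:**
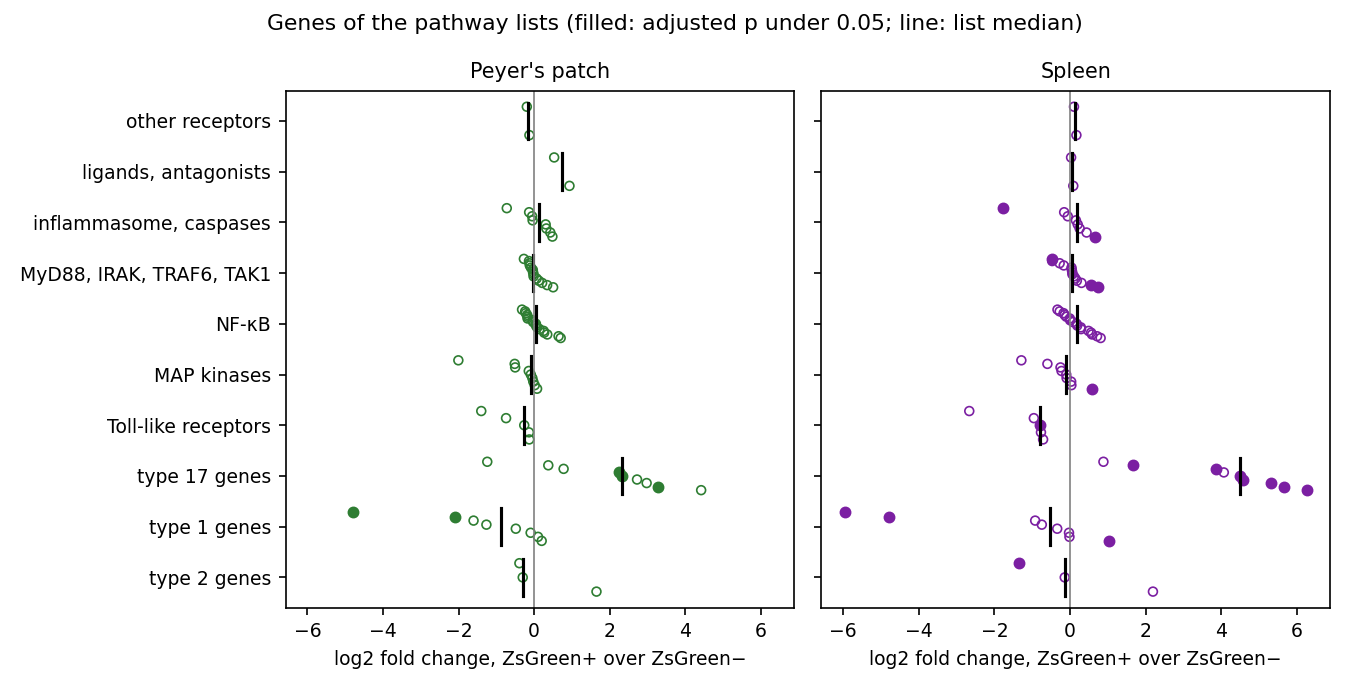
Each point is a tested gene of a pathway or program, with the log2 fold change of ZsGreen+ over ZsGreen− cells on the x axis and the list on the y axis; filled points have an adjusted p under 0.05 and the line is the list's median. In Peyer's patch the filled points are in the type 17 and type 1 lists only, and in spleen 7 of 9 type 17 genes are filled while most points of the signalling lists are open.

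Markers of other cells that carry these receptors were measured beside them. Of 4 regulatory T cell markers 2 fell in Peyer's patch, Foxp3 and Gpr83, both of which lost the call without single Peyer's patch libraries (highest adjusted p 0.242 and 0.23), and in spleen 3 fell and 1 rose. The one that rose was Il2ra, which encodes CD25, the protein the gate excluded, by 2.03 ± 0.39 (adjusted p = 0.0088), a call lost (highest adjusted p 0.131) when the ZsGreen− library of experiment 2 or the ZsGreen+ library of experiment 1 was omitted from spleen. The summed level of the 4 was 344 to 406 CPM in spleen ZsGreen− and 86.5 to 188 CPM in spleen ZsGreen+ cells, most of it from Ikzf2 (339 and 298.8 CPM, and 146.9 and 62.23 CPM). In Peyer's patch the sum was 273 to 314 CPM in ZsGreen− and 215 to 484 CPM in ZsGreen+ cells. Foxp3, their defining factor, fell in spleen from 34.17 and 18.09 CPM to 12.09 and 3.172 CPM, by -1.90 ± 0.30 (adjusted p = 0.00292). Foxp3 in Peyer's patch stood at 4.953 and 2.326 CPM in ZsGreen− and at 0.394 and 0.375 CPM in ZsGreen+ cells. Foxp3 was thus lower in Peyer's patch than in spleen in both sorts. Among ZsGreen− cells Foxp3 alone of the 4 was called between tissues (3.68% of all genes were lower in Peyer's patch). Among ZsGreen+ cells Foxp3 (-4.22, adjusted p = 0.000101) and Il2ra (-2.265, adjusted p = 0.00294) were lower in Peyer's patch. Ikzf2 (1.655, adjusted p = 0.0162) and Gpr83 (0.88, adjusted p = 0.0144) were higher there. Of all genes tested, 5.51% were higher there and 7.17% lower. Whether regulatory T cells had a part in the Il1rl1 level was not tested. Of 5 mast cell and basophil markers 1, Cpa3, was in a table, at 0 CPM in Peyer's patch and at most 0.153 CPM in spleen.

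Of 8 myeloid markers 5 could be tested and none was called by ZsGreen. In ZsGreen+ cells Lyz2 (1.89, adjusted p = 0.00122) and Cd68 (1.77, adjusted p = 0.0089) were higher in Peyer's patch than in spleen. Itgam was lower there (-3.25, adjusted p = 0.041). Of all genes tested, 5.51% were higher and 7.17% lower. The sum of the 7 markers found in at least 1 table was 30.9 to 31.3 CPM in Peyer's patch ZsGreen− and 30 to 35.4 in Peyer's patch ZsGreen+ cells. It was 16.9 to 22.4 in spleen ZsGreen− and 8.49 to 14.1 CPM in spleen ZsGreen+ cells. Il1r1 means of these groups, in the same order, were 139.2, 238, 47.05 and 254.3 CPM. The part of myeloid cells in them was not tested. Of 4 markers of γδ and innate-like T cells, Kit rose by 1.41 in Peyer's patch (adjusted p = 0.0203) and 1.69 ± 0.28 in spleen (adjusted p = 0.00351), and Trdc, the constant region of the δ chain, fell in spleen by -2.29 ± 0.47 (adjusted p = 0.0398). Kit lost its call in spleen without replicate 1 of ZsGreen− (adjusted p = 0.129) and in Peyer's patch without any one library of that tissue except replicate 2 of ZsGreen+, and by limma (0.484), and Trdc without any one ZsGreen+ library of either tissue or with no count filter (0.308). Markers of B cells, of NK and CD8 T cells and of stroma and epithelium gave no call by ZsGreen. The part of regulatory T cells and of γδ or innate-like cells in the receptor levels was not tested.

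The genes whose levels were most like those of each receptor were taken by Pearson's r of log2 CPM, centred by experiment, over the 8 libraries, which share their depth and experiment structure. For Il1r1 they were Cyth4 (r = 0.985), Thoc3 (0.985), Lysmd2 (0.981), Gm32036 (0.980) and Med21 (0.978). For Il18r1 they were Gm43042 (0.995), Slc25a24 (0.992), Gm16589 (0.991), Gna15 (0.991) and Ezh2 (0.990), and for Il18rap they were Nrgn (0.997), Gm17055 (0.994), Pdlim4 (0.993), Gna15 (0.991) and H1f1 (0.989). Gna15, a G protein α subunit gene, was on the lists of both IL-18 receptor chains. For Il1rl1 they were Ahnak (0.992), Tktl1 (0.992), Plec (0.991), Pdlim1 (0.988) and Esyt1 (0.985). Il1rl1 had at most 2 counts in a Peyer's patch library, so its r values follow mainly the difference between the tissues. The closest gene to Il1r2 was Mrps14 (0.977) and to Il1rap Gm42467 (0.988). Among the receptors themselves, Il18r1 and Il18rap had r = 0.985 and Il1r1 and Il1r2 had 0.863, while Il1r1 and Il18r1 had 0.108.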

How the data were processed

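Bulk mRNA was measured in 8 libraries of sorted mouse Tfh cells. The authors deposited estimated read counts (expected counts) per gene, of which 17.6% to 29.9% in each library were off a whole number by over 0.01. They also deposited a normalised signal, which is those counts times 1 constant per library (factors 0.765 to 1.58). Per the submitters' processing notes, the tools were Partek, STAR and DESeq2 and the build mm39, without versions or settings. Per the labels' protocols, RNA was extracted with Trizol and made into libraries either with poly A selection or with a non-directional kit for very small inputs, and the kind of each library is not stated.

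Counts were rounded and genes in both tables (16735 of 18114 and 20397) kept. edgeR 4.0.16 in R 4.3.3 filtered them by group (filterByExpr, minimum count 10, minimum total 15), scaled them by TMM (factors 0.656 to 1.24), and fitted a robust quasi-likelihood model with 4 group means and an experiment term (3 residual degrees of freedom). The labels tie each replicate number to the table of 1 experiment. Same-numbered libraries deviated together from their group means (Pearson's r across genes 0.825 to 0.867 in 6 pairs), and the number was kept as a block. Within-experiment ratios and likeness used log2 CPM with a prior count of 2. On simulated counts the model recovered 87.0% of genes changed by 1 log2 unit in Peyer's patch (14070 genes) and 93.5% in spleen (14074 genes). It made 9 and 8 false calls. The simulation gave all genes the same spread, changed only well-read genes and gave every group the same experiment offset. It therefore does not measure the power in these data. Alternatives were DESeq2 1.42.0, RLE scaling, limma 3.58.1 on log2(signal + 1), other count filters, genes of either table, no block, and leaving out each library. Promoter windows came from RefSeq, GRCm38.p6.

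The 6 receptors and all gene lists were chosen with earlier results of these data known. Besides the receptors, the text names in each list and ZsGreen contrast up to 4 genes with the smallest p among those past the threshold, all testable flanking genes, and up to 5 genes most like each receptor. Sigirr, Il1rl2, the ligand genes, Tbx21, Ifng, Gata3, Cpa3, Cd4 and the tissue contrasts of Traf6, Irak2, Myd88 and Rnf149 fall outside that rule or were added after their values were seen. The same holds for the tissue contrasts of the regulatory T cell and myeloid markers. A gene that the rule names among the type 17 genes is not reported here.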

Additional observations from a re-analysis of the deposited data

Results flagged for a closer look

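The ZsGreen contrast of Il1r1 differed between Peyer's patch and spleen by a log2 difference of -1.71, which passed the interaction test of edgeR (adjusted p = 0.0338) and had the same sign in both experiments. The call was lost without replicate 1 or replicate 2 of Peyer's patch ZsGreen− or replicate 1 of spleen ZsGreen+ (highest adjusted p 0.151), and without the term for the experiment.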

How the results depend on the processing

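Over 15 alternatives, each tissue call of Il1r1, Il1rl1, Il18r1 and Il18rap and each spleen ZsGreen call of Il1r1, Il18r1 and Il18rap kept its direction and its call except without the replicate block. Without the replicate block 0 genes and 0 receptor genes passed in each of the 5 contrasts (111, 398, 79, 369 and 568 genes at an unadjusted p under 0.05 for the ZsGreen contrast in Peyer's patch, in spleen, their difference, and the tissue contrast in ZsGreen− and ZsGreen+ cells, and 1, 2, 0, 2 and 2 receptor genes). DESeq2, fitted with the block, called 147 genes in Peyer's patch in place of 63 and 144 for the difference between tissues in place of 14, and no count filter gave 47 for that difference. The stricter count filter left 1 receptor gene in Peyer's patch. With single libraries left out, the counts of genes ran from 7 to 88 in Peyer's patch, 487 to 1357 in spleen, 2 to 93 for the difference, and 313 to 893 and 863 to 1965 for the tissue contrasts in ZsGreen− and ZsGreen+ cells; receptor genes ran from 0 to 2, 3 to 4, 0 to 1, 4 to 5 and 3 to 3. The lowest counts came without replicate 1 of Peyer's patch ZsGreen− (Peyer's patch and the difference), replicate 2 of spleen ZsGreen+, replicate 2 of Peyer's patch ZsGreen− and replicate 1 of Peyer's patch ZsGreen+.

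Log2 values that changed sign were all short of the threshold. With single libraries left out, the ZsGreen contrast in Peyer's patch ran from -0.278 to 1.24 for Il1r2 and from -0.0958 to 0.628 for Il1rap, and in spleen from -0.202 to 0.389 for Il1rl1. The difference between tissues ran from -0.519 to 0.204 for Il1rap and from -0.517 to 0.572 for Il18rap, which had 0.0493 by limma on the deposited signal. Peyer's patch over spleen ran from -0.485 to 0.243 for Il1rap in ZsGreen− cells, and in ZsGreen+ cells from -0.409 to 0.0732 for Il1r1 and from -0.2 to 1.02 for Il1r2. The causes were not tested. With 2 libraries per group, small differences of Il1rap were not detectable here. Il1r2 did not pass in the main fit even at 4.475-fold between the spleen sorts and 4.146-fold between tissues in ZsGreen− cells. Il1rl1 in Peyer's patch lay at the limit that depth allows.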
